A study of Mus musculus with 14 samples.

Results

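The genes examined were 10 markers of mesothelial cells, taken as a list of names and looked up by symbol in the deposited count table of epididymal white adipose tissue (eWAT). Of the 10 names, 9 matched a row (Upk3b, Upk1b, Msln, Lrrn4, Wt1, Krt7, Krt8, Krt18 and Krt19) among the 23282 rows of the table. Muc16 was not analysed here. The measurements came from QuantSeq 3′-mRNA sequencing, in which cDNA is primed at the poly(A) tail so that counts are not scaled by transcript length. In all, 14 libraries were available, each labelled as eWAT of a wild type mouse, and per the study's methods the animals were male C57BL/6J mice, obtained at an age of 4 weeks and assigned to the diets at random. The batch 1 controls (replicates 1 to 4) and the batch 2 controls (replicates 5 to 9) received the normal diet, and the WD group (replicates 1 to 5, all in batch 1) received the Western diet, with 20 weeks given for both diets. No transgene or other treatment was labelled. What the batch number stands for is not given in the sources used here. Because every WD library was in batch 1, diet and batch cannot be told apart when WD is set against the batch 2 controls.

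Mesothelial cells form the thin sheet that covers the peritoneal cavity and the organs and fat depots in it, visceral fat such as eWAT included. They come from the embryonic mesoderm but carry features of an epithelium, with keratin filaments, cell junctions and apical glycoproteins. Mesothelin and Upk3b are commonly used to mark them, whereas Krt7, Krt8, Krt18 and Krt19 are keratins of simple epithelia in general, so the keratins are shared with organs such as the epididymis, to which this fat depot is attached. In bulk tissue, fewer cells of a type and less RNA per cell cannot be told apart.

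Total counts were 10278970 to 13712254 per library, and between 10903 and 13780 genes had a count in each library except control replicate 4 of batch 1, which had 7999. CPM are counts scaled to a common library size, after TMM normalization over the 14 libraries, except for the floor. At these depths 3 counts, taken as the floor, corresponded to 0.219 to 0.292 CPM by library totals alone, without the TMM factors. Those factors ran from 0.770 in control replicate 1 to 1.12 in control replicate 4, so the floor is not on the scale of the other CPM. No molecular identifiers are mentioned, so the intervals and the floor cover counting error only. The adipocyte gene Adipoq, an adipokine, had 8162 counts in control replicate 1, whereas the other 13 libraries had 42550 to 174814. A list of 19 genes of the epididymis took 15.6% of the counts of control replicate 1, 0.0148% of control replicate 3 and no more than 0.00630% elsewhere.

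All 9 genes are protein coding in the GENCODE annotation of GRCm38, the assembly of the mm10 build that the submitters named. In the table's coordinates, Krt7 lay on chromosome 15 from 101412403 to 101427806, Krt8 on chromosome 15 from 101996711 to 102004342 and Krt18 on the same chromosome from 102028216 to 102032026. Krt8 and Krt18, whose proteins pair in the same filament, stood 23873 bases apart on opposite strands. Krt19 was on chromosome 11 from 100140811 to 100145919. The genes that are not keratins were spread over chromosomes 5 (Upk3b, 136038496 to 136044993), 16 (Upk1b, 38773184 to 38800203), 17 (Msln, 25748613 to 25754327) and 2 (Lrrn4, 132868516 to 132880862, and Wt1, 105126529 to 105173614). Krt8 overlapped the noncoding gene Gm36026 on the other strand and has an annotated pseudogene copy, Krt8-ps. Since the strand used in counting is not given and multiple alignments were counted, some Krt8 reads could belong to those sequences.

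Promoter sequences, 250 bases before to 50 after the start site, were matched in RefSeq (GRCm38.p6) for 5 of the 9 genes: Upk3b, Lrrn4, Krt7, Krt8 and Krt18. The promoters of Upk3b, a gene at 0 in 3 of the 4 batch 1 controls, and of the 3 keratins with a matched promoter are shown 5′ to 3′ on the gene's strand. They cover chr5:136038246-136038545 (plus strand, Upk3b), chr15:101412153-101412452 (plus strand, Krt7), chr15:102004293-102004592 (minus strand, Krt8) and chr15:102027966-102028265 (plus strand, Krt18). Capitals mark matches to GGGCGG, the GC box that Sp1 family factors bind, and to TATAAA, the TATA box, on either strand.
Upk3b: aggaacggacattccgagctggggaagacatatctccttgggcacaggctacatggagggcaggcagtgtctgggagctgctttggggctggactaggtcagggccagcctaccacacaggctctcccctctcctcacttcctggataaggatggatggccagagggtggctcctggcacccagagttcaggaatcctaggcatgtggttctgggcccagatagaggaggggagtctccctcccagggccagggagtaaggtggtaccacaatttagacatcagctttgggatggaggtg
Krt7: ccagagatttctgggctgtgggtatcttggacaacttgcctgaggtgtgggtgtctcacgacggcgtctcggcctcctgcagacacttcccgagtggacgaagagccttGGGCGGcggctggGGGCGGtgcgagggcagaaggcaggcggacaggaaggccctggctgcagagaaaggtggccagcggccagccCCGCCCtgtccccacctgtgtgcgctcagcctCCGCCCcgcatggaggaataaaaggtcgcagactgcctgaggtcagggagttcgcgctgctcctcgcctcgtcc
Krt8: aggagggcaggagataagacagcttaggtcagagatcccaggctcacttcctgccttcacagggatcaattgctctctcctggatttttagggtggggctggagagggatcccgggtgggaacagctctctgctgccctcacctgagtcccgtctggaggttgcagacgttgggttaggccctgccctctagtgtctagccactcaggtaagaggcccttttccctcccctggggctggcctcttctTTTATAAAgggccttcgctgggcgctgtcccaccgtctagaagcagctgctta
Krt18: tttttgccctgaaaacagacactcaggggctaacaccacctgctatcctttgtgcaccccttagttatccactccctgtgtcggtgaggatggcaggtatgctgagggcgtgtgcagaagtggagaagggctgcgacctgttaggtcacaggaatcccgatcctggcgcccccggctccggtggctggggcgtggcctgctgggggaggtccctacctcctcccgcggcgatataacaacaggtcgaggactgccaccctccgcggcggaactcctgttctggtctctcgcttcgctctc
Krt7 held 4 GC boxes, starting 141 and 128 bases before the start site on the gene's strand and 56 and 24 bases before it on the other strand. Krt8 held TATAAA on both strands in 1 overlapping run, starting 1 and 3 bases before the start site. Of 32851 mouse promoters of this length, 35.7% held GGGCGG and 13.6% TATAAA. Neither motif was matched in the windows of Upk3b, Lrrn4 or Krt18. TGANTCA, the AP-1 motif, and GCGTGGGAG, a Wt1 motif, were matched in none of the 5 windows, against 7.81% and 0.472% of all promoters. A match describes the letters of these windows and no match says nothing about the factor.

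Of the genes for surface proteins, Msln and Upk3b were each counted in 10 of the 14 libraries and Lrrn4 and Upk1b in all 14. This includes single counts, under the floor of 3, for Upk3b in WD replicate 5 and Lrrn4 in control replicate 4. Msln encodes mesothelin, a glycoprotein anchored in the membrane of mesothelial cells. Its counts were 0, 0, 108 and 0 in control replicates 1 to 4, 170, 181, 78, 24 and 0 in WD replicates 1 to 5, and 371, 135, 129, 149 and 14 in control replicates 5 to 9. Msln was thus counted in 1 of 4 batch 1 controls, 4 of 5 WD libraries and 5 of 5 batch 2 controls, and the groups overlapped. The batch 1 controls averaged 2.25 ± 4.50 CPM (SD, n = 4), the WD group 7.82 ± 7.94 CPM (SD, n = 5) and the batch 2 controls 12.3 ± 8.95 CPM (SD, n = 5).

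Upk3b encodes a uroplakin-related membrane protein used as a mesothelial marker. It had 0, 0, 101 and 0 counts in control replicates 1 to 4, 107, 111, 17, 0 and 1 in WD replicates 1 to 5, and 190, 87, 67, 110 and 23 in control replicates 5 to 9. As for Msln, control replicate 3 held every count of the batch 1 controls, and WD replicates 4 and 5 were the lowest of their group. The batch 1 controls averaged 2.10 ± 4.21 CPM (SD, n = 4), the WD group 4.16 ± 5.34 CPM (SD, n = 5) and the batch 2 controls 7.49 ± 4.17 CPM (SD, n = 5). A count of 0 with the floor of 3 counts allows up to 0.249, 0.256 and 0.243 CPM in control replicates 1, 2 and 4, by library totals alone. With the TMM factors of 0.770, 1.02 and 1.12, the limit would be higher in replicate 1 and lower in replicates 2 and 4. The same limits hold for Msln in these libraries, and they cover counting error only. Control replicate 4, with 7999 genes detected, was also at 0 for genes of other cell types. These were 3 of 6 endothelial and 2 of 7 stromal progenitor genes, beside 8 of 12 other mesothelial genes, so its zeros are not particular to Msln and Upk3b.

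Lrrn4, which encodes a membrane protein with leucine-rich repeats, was the best counted of the 5 genes that are not keratins. Control replicates 1 to 4 had 133, 112, 509 and 1 counts, WD replicates 1 to 5 had 519, 696, 713, 229 and 117, and control replicates 5 to 9 had 560, 325, 557, 757 and 239. Control replicate 3 lay within the range of the batch 2 controls, and replicates 1, 2 and 4 lay below every one of them. Lrrn4 averaged 16.6 ± 18.2 CPM (SD, n = 4) in the batch 1 controls, while WD libraries averaged 38.4 ± 26.3 CPM (SD, n = 5) and the batch 2 controls 38.8 ± 12.8 CPM (SD, n = 5).

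Upk1b, a tetraspanin of the uroplakin family that is also made in the bladder lining, ran differently. It had 571, 49, 30 and 403 counts in control replicates 1 to 4, 135, 48, 110, 75 and 16 in WD replicates 1 to 5, and 124, 57, 102, 208 and 44 in control replicates 5 to 9. It was the only gene of the 9 with over 3 counts in all 14 libraries, and in control replicate 4 it made up 403 of the 404 counts of the 9 genes together. The batch 1 controls averaged 24.4 ± 27.7 CPM (SD, n = 4), with replicates 1 and 4 high, the WD group 6.02 ± 3.14 CPM (SD, n = 5) and the batch 2 controls 8.42 ± 4.52 CPM (SD, n = 5). The other uroplakin genes Upk2 and Upk3a had 0 counts in all 14 libraries. Upk1a had 231 counts in control replicate 1, 10 in control replicate 9 and 0 elsewhere.

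Wt1, the Wilms tumour transcription factor that acts in the mesothelium and in the kidney and gonads, was the lowest of the 5 in its highest library. Control replicates 1 to 4 had 0, 48, 79 and 0 counts, WD replicates 1 to 5 had 28, 18, 10, 82 and 44, and control replicates 5 to 9 had 84, 19, 37, 55 and 78. Its means of 2.65 ± 3.23 CPM (SD, n = 4), 2.96 ± 2.23 CPM (SD, n = 5) and 4.50 ± 2.41 CPM (SD, n = 5) in the batch 1 controls, WD and the batch 2 controls lay within 1 SD of each other. WD replicate 4, at 0 for Upk3b, was the highest WD library for Wt1.

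**Figure D1:**
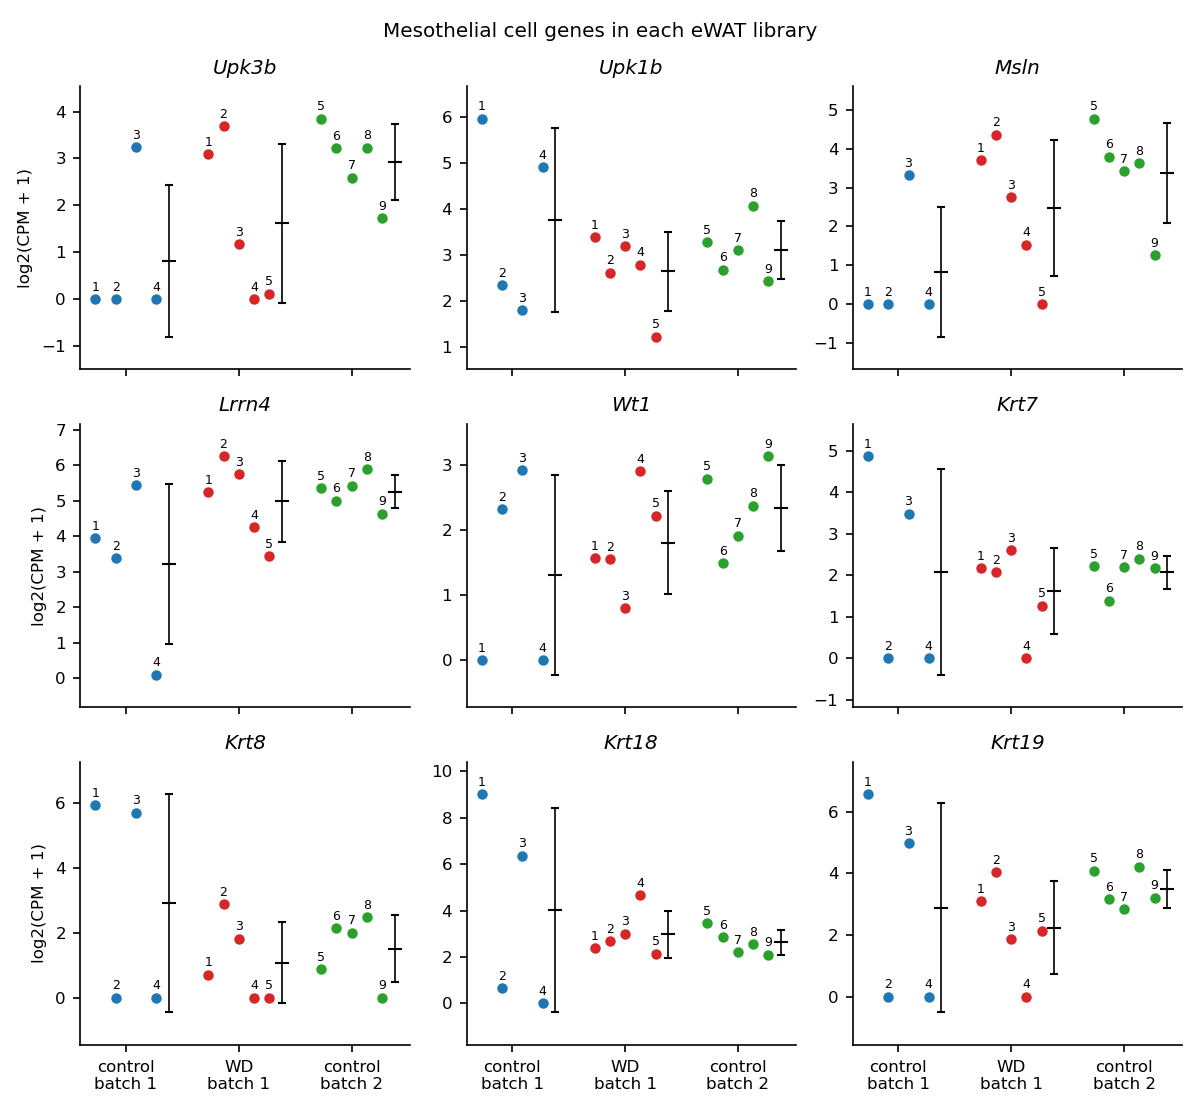
Each panel plots 1 gene as log2(CPM + 1) in the 14 libraries, with the replicate number above each point and the mean ± SD of the group to the right (batch 1 controls, n = 4; WD, n = 5; batch 2 controls, n = 5). Upk3b and Msln are at 0 in control replicates 1, 2 and 4, and all 4 keratins are highest in control replicates 1 and 3.

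The keratins were concentrated in control replicates 1 and 3 of batch 1. Krt18, a type I keratin that pairs with Krt8, had 4776, 7, 980 and 0 counts in control replicates 1 to 4, 60, 50, 95, 309 and 41 in WD replicates 1 to 5, and 142, 65, 49, 64 and 33 in control replicates 5 to 9. Control replicate 1 alone held 82.9% of the Krt18 counts of the batch 1 controls. On average, the batch 1 controls had 150 ± 247 CPM (SD, n = 4), the WD group 8.90 ± 8.80 CPM (SD, n = 5) and the batch 2 controls 5.62 ± 2.72 CPM (SD, n = 5).

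Krt8, the type II partner of Krt18, had 553, 0, 607 and 0 counts in control replicates 1 to 4, 9, 59, 34, 0 and 0 in WD replicates 1 to 5, and 12, 36, 40, 60 and 0 in control replicates 5 to 9. The lower of its high control libraries held 553 counts and the highest of the other 12 libraries 60. Krt19, a type I keratin of simple epithelia, had 868, 0, 365 and 0 counts in control replicates 1 to 4, 107, 143, 36, 0 and 41 in WD replicates 1 to 5, and 227, 83, 82, 231 and 83 in control replicates 5 to 9. Krt7, a type II keratin of ducts and of mesothelium, had 260, 0, 122 and 0 counts in control replicates 1 to 4, 50, 30, 69, 0 and 17 in WD replicates 1 to 5, and 52, 17, 48, 56 and 35 in control replicates 5 to 9. For each of these 3 genes the batch 1 controls reached above every library of the other groups and down to 0, which was also the lowest value in WD. Their means were 27.6 ± 32.1 CPM for Krt8, 31.04 ± 44.2 CPM for Krt19 and 9.56 ± 13.2 CPM for Krt7 (SD, n = 4) in the batch 1 controls. The same means were 1.90 ± 2.68, 5.80 ± 5.99 and 2.65 ± 1.98 CPM in WD and 2.37 ± 1.89, 11.2 ± 5.24 and 3.33 ± 1.00 CPM in the batch 2 controls (SD, n = 5 each).

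Genes of other epithelia were counted in the same control libraries. Cdh1, the adhesion protein of epithelial junctions, had 2290 counts in control replicate 1 and 280 in control replicate 3, 30 and 37 in WD replicates 1 and 2, and 0 in the other 10 libraries. Epcam, an epithelial surface protein, had 1418 and 339 counts in control replicates 1 and 3, 24 in WD replicate 1 and 0 elsewhere. The summed level of 12 genes of other epithelia was 0 to 629 CPM in the batch 1 controls, 0.0833 to 7.92 CPM in WD and 1.60 to 4.03 CPM in the batch 2 controls, and Krt13, Krt20, Upk2 and Upk3a of that list were at 0 throughout. The epididymis genes were highest in control replicate 1, at 15.6% of counts, and next in control replicate 3, at 0.0148%, where Cuzd1 held 1223 of their 1652 counts, and reached at most 60.4 CPM in the other 12 libraries against 137.7 CPM in control replicate 3. In control replicate 3, 13 of the 19 epididymis genes and 8 of the 12 genes of other epithelia were at 0, against 0 and 4 in control replicate 1. The part of other epithelia in the keratin values was not tested.

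**Figure D2:**
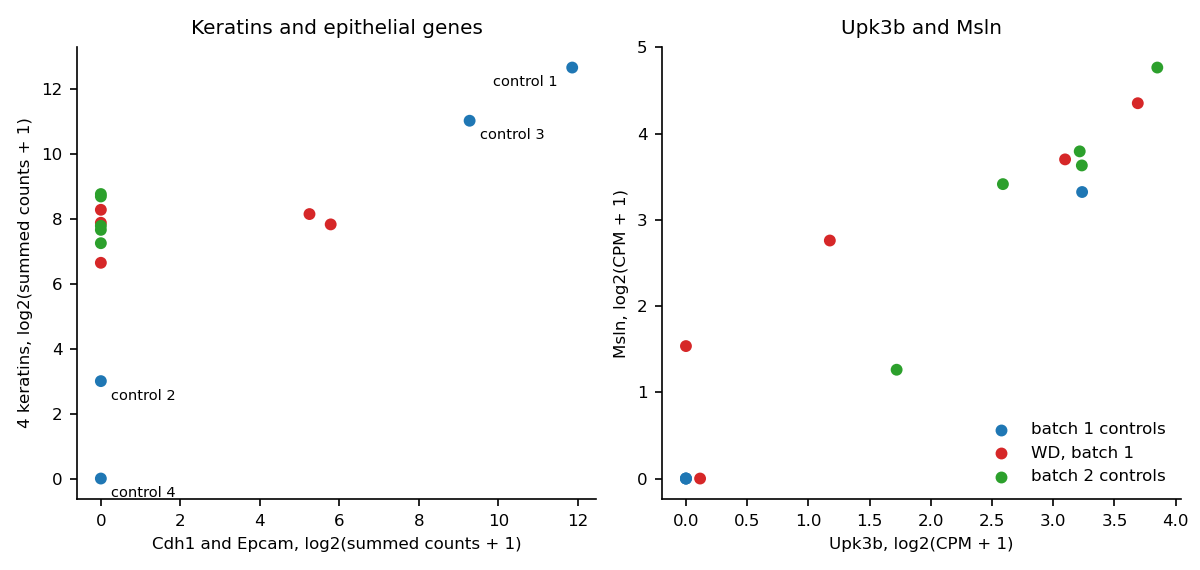
Left, the summed counts of Krt7, Krt8, Krt18 and Krt19 against those of Cdh1 and Epcam, each as log2(counts + 1), and right, Msln against Upk3b as log2(CPM + 1); each point is 1 of the 14 libraries, coloured by group. Control replicates 1 and 3 stand at the upper right of the left panel with 6457 and 2074 keratin counts, and the libraries on the right panel run along a diagonal, with control replicates 1, 2 and 4 together at 0.

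Summed over the 9 genes, the level was 773, 18.02, 242 and 29.3 CPM in control replicates 1 to 4, 83.7, 143, 86.0, 56.9 and 23.1 CPM in WD replicates 1 to 5, and 124, 78.5, 83.2, 129 and 54.8 CPM in control replicates 5 to 9. The batch 1 controls thus held the highest 2 and the lowest of the 14 libraries. The keratins made up 90.2% of these counts in control replicate 1 (Wilson 95% interval 89.5 to 90.8%), 3.24% in control replicate 2 (1.58 to 6.54%), 71.5% in control replicate 3 (69.8 to 73.1%) and 0% in control replicate 4 (up to 0.942%). In the WD libraries the keratin share was 19.1 to 43.0% and in the batch 2 controls 19.7 to 27.5%. With the keratins left out, the median of the summed level was 49.1 CPM in the batch 1 controls, 67.7 CPM in WD and 66.8 CPM in the batch 2 controls, and the ranges of 17.4 to 76.0, 14.8 to 113 and 39.7 to 97.7 CPM overlapped.

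**Figure D3:**
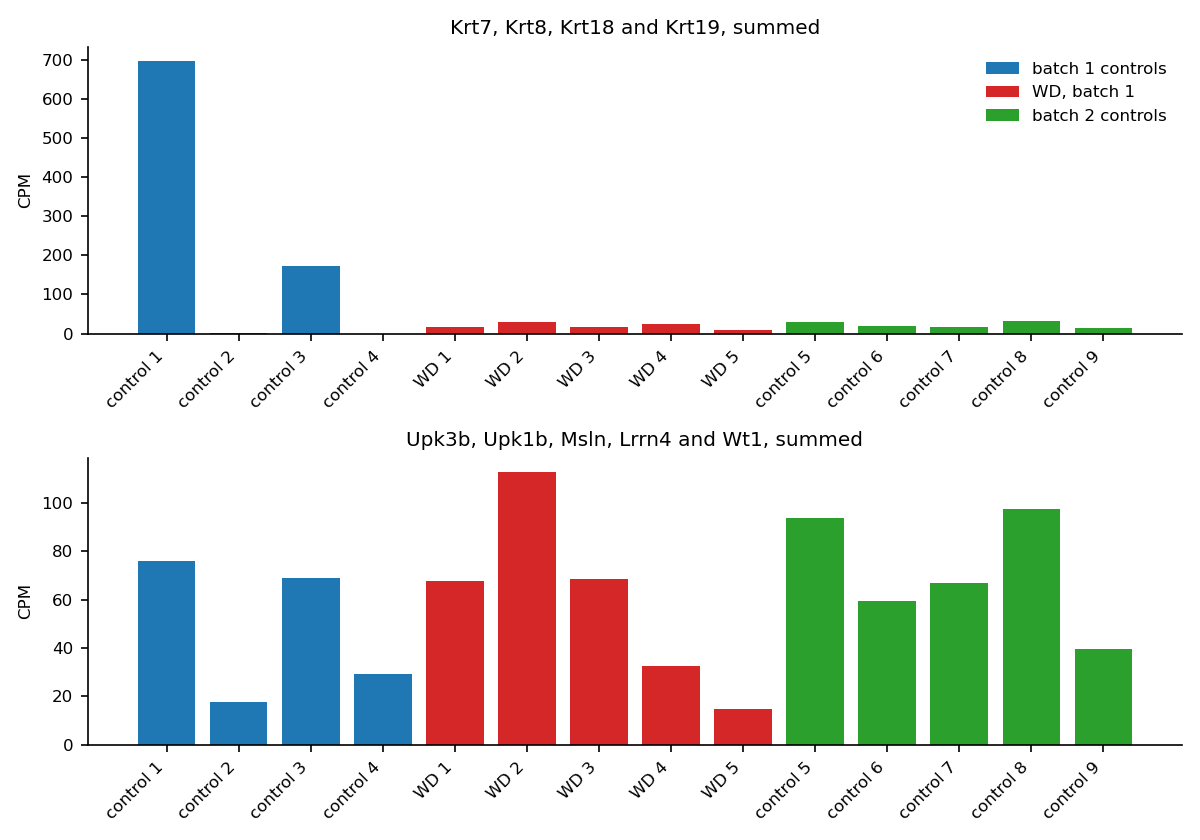
Bars give the summed CPM of the 4 keratins (upper panel) and of Upk3b, Upk1b, Msln, Lrrn4 and Wt1 (lower panel) in each of the 14 libraries, coloured by group, with separate linear axes from 0. Control replicate 1 reaches 697 CPM and control replicate 3 173 CPM for the keratins, against at most 31.4 CPM in the other 12 libraries.

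The diets were compared first within batch 1, with edgeR's quasi-likelihood test on 4 control and 5 WD libraries and Benjamini-Hochberg adjustment over 12157 genes (FDR). None of the 9 genes had an FDR under 0.05, where the background over all genes tested was 0%. At an unadjusted p under 0.05 edgeR called 1 of the 9, against 5.17% of all genes, and DESeq2 called 2 of the 9, against 6.95%, while DESeq2 gave 0 of the 9 an FDR under 0.05, against 0.954%. For none of the 9 were the groups separate in CPM, as they were for 3.87% of all genes. Msln, Upk3b, Lrrn4 and Wt1 had positive log2 fold changes of 1.79 (SE 2.15), 0.98 (SE 2.30), 1.21 (SE 1.05) and 0.16 (SE 1.81), WD over control. Upk1b and the 4 keratins had negative ones, -2.02 (SE 1.00) for Upk1b, -1.86 (SE 1.91) for Krt7, -3.87 (SE 2.04) for Krt8, -4.08 (SE 1.57) for Krt18 and -2.43 (SE 1.78) for Krt19. Krt18 was the gene with the unadjusted p under 0.05, with FDR = 0.777 from edgeR's quasi-likelihood test. The median over the 9 was -1.86 on the log2 scale, against 0.03 over all genes tested.

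Single libraries set several of these values. Without control replicate 1, the log2 fold change of Krt18 was -1.62 in place of -4.08, that of Krt19 -0.81 in place of -2.43, that of Krt7 -0.35 in place of -1.86 and that of Upk1b -0.99 in place of -2.02. Without control replicate 3, the 3 remaining controls were at 0 for Upk3b and Msln and the fitted values, 8.64 and 9.55, depended on the prior count and are no bounds. Control replicates 1 and 3 were also left out together, an alternative chosen after seeing the data. Control replicates 2 and 4, which remained, held 0 counts of Krt7, Krt8 and Krt19, and 7 and 0 counts of Krt18. Leaving out the others thus fixed the positive sign of all 4 keratins in advance. The fitted values were 8.06 for Krt7, 7.57 for Krt8, 4.89 for Krt18 and 9.18 for Krt19. Their lowest FDR was 0.418 by edgeR's quasi-likelihood test, and nothing is drawn from them.

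Against the batch 2 controls, edgeR's quasi-likelihood test gave 773 of 12070 genes an FDR under 0.05, 6.4% of those tested, and none of the 9 genes was among them. At an unadjusted p under 0.05 edgeR called 0 of the 9, against 17.7% of all genes, and DESeq2 0 of the 9, against 20.5%. DESeq2 gave 0 of the 9 an FDR under 0.05, against 9.87% of all genes, and the groups were separate for 0 of the 9, against 8.79%. The log2 fold changes, WD over batch 2 controls, were negative for 8 of the 9 genes. They were -0.87 (SE 1.13) for Upk3b, -0.50 (SE 0.64) for Upk1b, -0.68 (SE 0.95) for Msln, -0.03 (SE 0.43) for Lrrn4 and -0.60 (SE 0.90) for Wt1. Among the keratins they were -0.35 (SE 1.13) for Krt7, -0.35 (SE 1.57) for Krt8, 0.66 (SE 0.68) for Krt18 and -0.97 (SE 0.88) for Krt19. The FDR of the 9 ranged from 0.682 to 0.985 by this test. The median was -0.50, against -0.0034 for all genes. In this same comparison 7 of 8 macrophage genes had an FDR under 0.05 and were higher in WD, where diet and batch cannot be told apart. In WD over batch 1 controls all 8 were higher and 0 had an FDR under 0.05. Between the control batches, on 1 diet, 7 of the 8 were lower in batch 2 and 1 was higher, 0 with an FDR under 0.05.

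The controls of the 2 batches, on the same diet, were compared to see how far the genes moved without a change of diet. In edgeR's quasi-likelihood test of batch 2 over batch 1, 0 of the 9 genes and 0% of 12106 genes had an FDR under 0.05. At an unadjusted p under 0.05 edgeR called 1 of the 9, against 7.39% of all genes, and DESeq2 2 of the 9, against 10.2%. DESeq2 gave 0 of the 9 an FDR under 0.05, against 0.937%, and 0 of the 9 had separate groups, against 5.29%. Msln was at 2.44 (SE 1.81), Upk3b at 1.82 (SE 1.84), Lrrn4 at 1.22 (SE 0.97) and Wt1 at 0.76 (SE 1.64) on the log2 scale. Upk1b was at -1.54 (SE 0.90), Krt7 at -1.53 (SE 1.61), Krt8 at -3.54 (SE 1.81), Krt19 at -1.48 (SE 1.49) and Krt18 at -4.75 (SE 1.60), the last with the lowest FDR of the 9, 0.492 from edgeR's quasi-likelihood test. Both this comparison and that of the diets in batch 1 use control replicates 1 to 4, so their like signs are not independent. Without control replicate 1, Krt18 was at -2.28, Krt7 at -0.017, Upk1b at -0.52 and Krt19 at 0.15. Without control replicates 1 and 3 the keratins were at 4.23 for Krt18 to 10.1 for Krt19, the latter with FDR = 0.0805 by edgeR's quasi-likelihood test. Their positive sign was again fixed in advance, by leaving out the batch 1 controls with nearly all the keratin counts. Nothing is drawn from it.

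**Figure D4:**
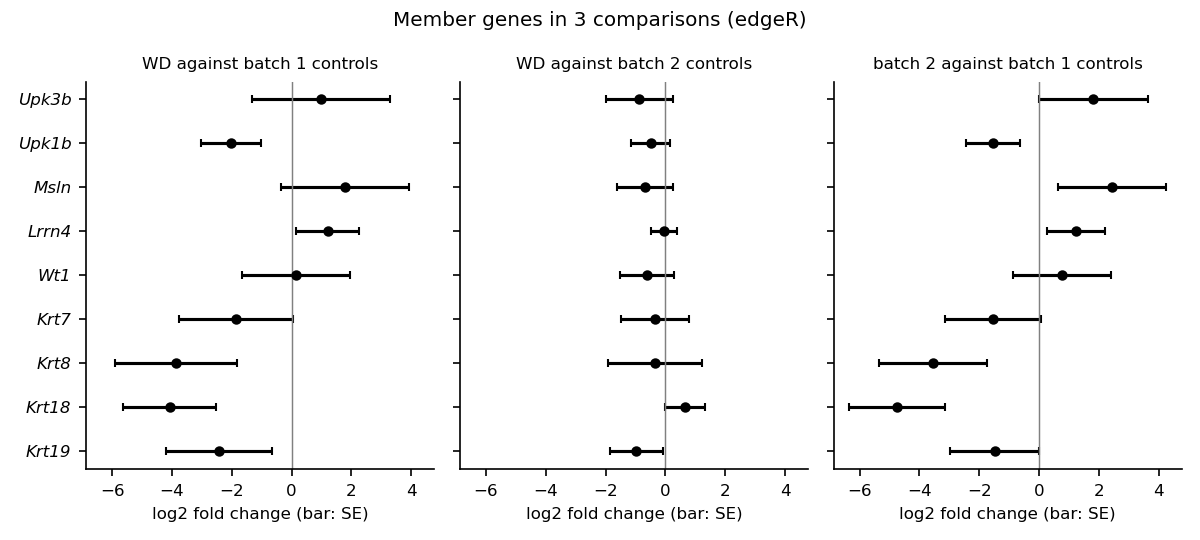
Points give the log2 fold change of each of the 9 genes from edgeR's quasi-likelihood fit and bars its SE, for WD over batch 1 controls, WD over batch 2 controls and batch 2 over batch 1 controls. Krt18 is at -4.08 and -4.75 in the outer panels, which share the batch 1 controls, and at 0.66 in the middle one.

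Other genes used to mark mesothelium were read beside them from a list of 12, of which 10 passed the filter on low counts. In batch 1, 7 of the 10 had positive and 3 negative log2 fold changes in WD, with a median of 0.71 and none with an FDR under 0.05 in edgeR's quasi-likelihood test. Against the batch 2 controls 3 were positive and 7 negative, with a median of -0.16, and between the control batches 7 were positive and 3 negative, with a median of 1.06, none with an FDR under 0.05 by the same test. Gpm6a, a membrane glycoprotein of neurons and mesothelium, was counted in all 14 libraries, with 36 counts in control replicate 1 and 82 to 924 in the others. Slpi, a secreted protease inhibitor, had 0 counts in control replicate 4 and 53 to 1801 in the others. Other genes of the list were highest in libraries at 0 for Msln and Upk3b. Cldn15 had 1289 counts in control replicate 2 and 26 to 779 in the others. Pdpn had 1010 counts in control replicate 1 and 16 to 773 in the others. Nkain4, Bnc1 and Calb2 were at 0 in several libraries, Bnc1 in 11 and Calb2 in 13 of the 14. The 12 genes summed to 42.3 to 496 CPM in the batch 1 controls, 226 to 452 CPM in WD and 201 to 541 CPM in the batch 2 controls.

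The partners and junction proteins of keratins formed a list of 9, of which 7 passed the filter in batch 1. There 1 was higher and 6 were lower in WD, with a median log2 fold change of -0.43 and none with an FDR under 0.05 in edgeR's quasi-likelihood test. Cdh1 was at -5.82 (SE 2.19) and Dsp, the desmoplakin that ties keratin filaments to desmosomes, at -5.11 (SE 1.92). Dsp counts followed the keratins, with 1722 and 246 in control replicates 1 and 3, 0 in replicates 2 and 4, and 0 to 38 in the other 10 libraries. Ezr was also highest in control replicates 1 and 3, at 2852 and 980 counts, and Cldn1 in replicate 1, at 238. Pkp2, Jup, Tjp1 and Plec did not follow the keratins. Pkp2, the 1 higher gene, was at 1.61 (SE 0.52), with 252 counts in control replicate 1 and 1492 in WD replicate 2. Jup had 177 counts in control replicate 1, against 522, 573 and 401 in replicates 2 to 4. Against the batch 2 controls 1 of 7 genes passed, where 6.4% of all genes tested did. It was Plec, the linker protein plectin, at 0.94 (SE 0.25, FDR = 0.0330 from edgeR's quasi-likelihood test). Plec was at -0.43 (SE 0.42) in WD over batch 1 controls and at -1.39 (SE 0.41) in batch 2 over batch 1 controls. Diet and batch cannot be told apart in its value against the batch 2 controls.

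Across the 14 libraries the 9 genes fell into pairs that ran together and pairs that did not, as Pearson correlations of log2(CPM + 1) over 36 pairs, given as a description. These libraries share the batches, the preparation and their uneven depth in genes detected. Upk3b and Msln had the highest r, 0.94 (Spearman's rho 0.889), which was 0.93 in the 9 libraries of batch 1 and 0.96 without the 2 libraries farthest from the median. Lrrn4 had r = 0.78 with Msln and 0.72 with Upk3b. Upk1b and Wt1 had the lowest r, -0.71, which was -0.51 without control replicates 1 and 3 and -0.25 without the 2 libraries farthest from the median. Among the 6 keratin pairs r was 0.69 to 0.92, with a median of 0.80 that was 0.47 without control replicates 1 and 3. The 20 pairs of a keratin and another gene had a median r of 0.29, which was 0.60 without those libraries. For the 10 pairs without a keratin the median was 0.30, and 0.18 without those libraries.

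The genes whose pattern was most like the mean of the 9, over 14 libraries and among 13150 genes, were Mfsd6 (r = 0.93), Nmrk1 (r = 0.92), Fam20b (r = 0.90), Tbc1d23 (r = 0.90), Pcgf6 (r = 0.88), Pank1, Ttc16, Tor2a and Flrt1 (r = 0.87 each) and Ano1 (r = 0.86). None of them was among the other mesothelial genes listed. Of those ranked, Pdpn was highest, at 23 (r = 0.84), and Cldn15 lowest, at 11852 (r = -0.36). With the mean taken over the 5 genes that are not keratins, a choice made after values were seen, the leading genes were Chst4 (r = 0.95), Inpp5e (r = 0.91), Fam217b (r = 0.90) and Slpi (r = 0.90). Slpi, one of the listed mesothelial genes, was at rank 4 in that order and Gpm6a at rank 52 (r = 0.78). The rest of the list that was ranked ran from 177 for Rspo1 (r = 0.70) to 7333 for Cldn15 (r = 0.12).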

How the data were processed

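Total RNA of eWAT was prepared with a QuantSeq 3′ kit and sequenced from a single end. The authors aligned the reads with Bowtie2, with mm10 named in the submitters' notes, and counted unique and multiple alignments per gene with Bedtools; the deposited counts are not normalized. The authors also deposited log2 values of TMM-normalized CPM with 1 added, which the log2(CPM + 1) computed here matched within 0.0507. Of the 23282 rows, 5794 had no count. Groups, batches and replicate numbers came from the labels, and libraries of 1 group differed by far more than sampling noise. The study's mice were assigned to the diets at random, but the labels do not tie each library to an animal, so p-values measure the spread between these libraries.

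Counts were tested with edgeR 4.0.16 (quasi-likelihood, TMM, filterByExpr with a minimum count of 10, Benjamini-Hochberg over all genes, FDR 0.05) in R 4.3.3 with limma 3.58.1, and with DESeq2 1.42.0 as an alternative. All 9 genes passed the filter in all 3 comparisons. The script was tested on simulated data. Python 3.11.15, numpy 2.4.6, pandas 2.3.3, scipy 1.17.1 and matplotlib 3.10.9 were used for the rest. Intervals are Wilson intervals at 95%. Genes named beside the members were those of fixed lists with an FDR under 0.05 or the largest changes, markers read per library, and the 10 genes with the highest Pearson r with the mean of the members; others were chosen after their values were seen. The members and lists were chosen with earlier results of these data known.

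The alternatives were DESeq2 and its size factors, scaling by totals alone, no low-count filter, each library left out in turn, all 9 controls with and without a batch term, the replicate number as a block and, added after seeing the data, control replicates 1 and 3 left out. Those libraries were picked by Cdh1 and Epcam, which are not members but were high where the keratins were high. The choice also removed nearly all the keratin counts of the batch 1 controls, which fixed the positive sign of the keratins in advance. A fit without control replicates 2 and 4 was also run and then dropped, because those libraries had been picked by the members' own counts of 0.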

Additional observations from a re-analysis of the deposited data

Results flagged for a closer look

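Of 27 groups of values (9 genes in 3 groups), 3 held a library whose gap to its nearest neighbour was large against the range of the group. Chance flags about 1 in 20 groups, which is 1.35 of 27, if values are continuous and groups independent. Values tied at 0 and genes that run together, as Upk3b and Msln do, break these conditions, so the rate is no measure for them. In the batch 1 controls, Upk3b stood at 3.24 on the log2(CPM + 1) scale in control replicate 3, from 101 counts, and at 0 in the other 3 libraries. Msln did the same, at 3.32 in control replicate 3, from 108 counts, and at 0 in the other 3. In the batch 2 controls, Krt7 was at 1.39 in control replicate 6, from 17 counts, against 2.17 to 2.40 in the other 4 libraries.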

How the results depend on the processing

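None of the 9 genes had an FDR under 0.05 in any comparison under the alternatives tabulated, with a lowest FDR of 0.0805 over 400 values of single genes, of which 380 kept their sign. The 20 that reversed are given next. Of these, 8 came from leaving out control replicates 1 and 3, as did the lowest FDR. That choice removed nearly all the keratin counts of the batch 1 controls and so fixed those 8 signs in advance. For WD over batch 1 controls, Wt1 was at -0.25 without control replicate 1, -0.26 without control replicate 4 and -0.35 without WD replicate 4; with all 9 controls and no batch term Upk3b was at -0.31, Msln at -0.023 and Wt1 at -0.31; without control replicates 1 and 3 Krt7 was at 8.06, Krt8 at 7.57, Krt18 at 4.89 and Krt19 at 9.18. For WD over batch 2 controls, Lrrn4 was at 0.15 and Krt8 at 0.026 without control replicate 8, Lrrn4 at 0.14 and Krt18 at -0.19 without WD replicate 4, and Lrrn4 at 0.21 without WD replicate 5. For batch 2 over batch 1 controls, Krt19 was at 0.15 without control replicate 1, and without control replicates 1 and 3 Krt7 was at 8.37, Krt8 at 7.88, Krt18 at 4.23 and Krt19 at 10.1. With 1 library left out, Wt1 thus ranged from -0.35 to 1.13 in the first comparison, Lrrn4 from -0.42 to 0.21, Krt8 from -1.60 to 0.026 and Krt18 from -0.19 to 0.98 in the second, and Krt19 from -1.85 to 0.15 in the last. Apart from the 8 whose sign was fixed by the choice of libraries, the cause of these reversals was not tested. A fit without control replicates 2 and 4 was run once and dropped, because the genes' own zeros had picked those libraries; some keratins passed the FDR threshold in it, which such a choice of libraries favours by construction, and nothing is drawn from it.

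Over all genes in batch 1, the number with an FDR under 0.05 was 0 with edgeR, 114 with DESeq2, 48 without control replicate 4, 67 with all 9 controls and no batch term, 1 with batch as a covariate and 2 without control replicates 1 and 3. Between the control batches it was 0 with edgeR, 111 with DESeq2, 1 without control replicate 1 and 2 without control replicate 4. The median summed level of the 9 genes in the batch 1 controls ranged from 29.3 to 241.8 CPM with 1 library left out, in WD from 70.3 to 84.8 CPM and in the batch 2 controls from 80.9 to 103.8 CPM. With the replicate number as a block, 0 of the 9 genes had an FDR under 0.05 and Krt18 was at -0.38, Upk1b at -0.79, Upk3b at 5.72 and Msln at 7.37. Same-numbered libraries deviated together with r of -0.02 to 0.08. The WD library with the highest r was the same-numbered one for control replicates 2 and 4 and another for control replicates 1 and 3. These values cannot settle whether the libraries were paired. Depth limits the genes with few counts: at 0 counts, levels below 0.219 to 0.292 CPM, by library totals alone without TMM, could not be seen.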
